A study of Mus musculus with 12 samples.

Results

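AP-1 is the dimeric transcription factor formed by FOS and JUN proteins. The results below describe the chromatin around 5 of its genes, Fos, Fosl1 and Fosl2 of the FOS family and Jun and Junb of the JUN family, in cell lines from mouse pancreatic tumours. Members were all listed ChIP-seq regions that overlapped 5 windows of the mm9 genome by at least 1 bp. The windows were chr12:86760001-86870000 for Fos, chr19:5400001-5500000 for Fosl1, chr5:32380001-32520000 for Fosl2, chr4:94650001-94800000 for Jun and chr8:87460001-87540000 for Junb. They held 265 of the 313566 regions in the 11 deposited lists.

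The study examined what the histone demethylase KDM6A does in pancreatic cancer. Its lists came from a female KDM6A-KO and a female KDM6A-WT line, profiled for KDM6A, for MLL4 (the methyltransferase KMT2D, by the antibody label) and for H3K4me1, and from a male KO and a male WT line profiled for H3K4me1. The lists of H3K4me3, H3K27ac and H3K27me3 came from female WT only. All lines were grown in F12/DMEM with EGF, without treatment. Each group held 1 library, so no difference between KO and WT has a replicate check and none was tested. The sex stands in the sample titles only, and every label, WT included, describes a line from a tumour lacking Kdm6a. KO and WT are therefore used as the genotype field gives them, and neither the number of clones per line nor the driver of the deletion was given in the sources used here. The identity of the lines could not be checked against marker genes, because no mm9 gene annotation was used. The lists held between 108165 reads (MLL4, WT) and 17526099 reads (H3K4me3) in their regions. Counts and lengths of regions move with depth and with the calling threshold, and absence from a list is not absence of the mark.

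FOS proteins cannot form stable dimers with each other and pair with JUN proteins, which also pair among themselves. The dimers bind the AP-1 site, with the core TGACTCA, and are common occupants of enhancers in epithelial and tumour cells. Fos and Junb are classical immediate early genes, induced by growth factors such as EGF, and Fosl1 (FRA-1) is known as a target of sustained ERK signalling in carcinoma cells. H3K4me1 marks enhancers and the flanks of promoters, H3K4me3 marks promoters, H3K27ac marks active elements of both kinds, and H3K27me3 marks Polycomb repression. KDM6A removes H3K27me3 and is a subunit of the MLL3 and MLL4 complexes, which deposit H3K4me1.

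The stretch of 250 bases upstream of the annotated start is shown for the 4 members found in the RefSeq promoter table, which is on GRCm38.p6. Sites through which the family is induced may also lie farther upstream, which was not searched. Fosl1 was not matched. Each sequence is written 5′ to 3′ on the gene's own strand, and capitals mark the motifs searched for.
Fos: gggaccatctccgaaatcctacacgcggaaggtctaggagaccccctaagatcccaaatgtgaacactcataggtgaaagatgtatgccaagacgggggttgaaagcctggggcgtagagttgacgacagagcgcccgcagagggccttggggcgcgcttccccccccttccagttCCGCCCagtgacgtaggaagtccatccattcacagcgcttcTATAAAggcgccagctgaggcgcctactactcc
Fosl2: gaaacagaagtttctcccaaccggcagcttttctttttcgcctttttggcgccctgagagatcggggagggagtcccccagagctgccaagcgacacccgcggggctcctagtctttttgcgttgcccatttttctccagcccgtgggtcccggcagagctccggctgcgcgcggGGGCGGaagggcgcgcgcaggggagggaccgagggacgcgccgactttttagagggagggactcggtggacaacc
Jun: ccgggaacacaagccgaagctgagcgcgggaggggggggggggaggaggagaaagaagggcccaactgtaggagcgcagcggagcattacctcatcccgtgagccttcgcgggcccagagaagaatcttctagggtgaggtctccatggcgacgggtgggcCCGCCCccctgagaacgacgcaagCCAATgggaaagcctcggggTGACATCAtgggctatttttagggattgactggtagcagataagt
Junb: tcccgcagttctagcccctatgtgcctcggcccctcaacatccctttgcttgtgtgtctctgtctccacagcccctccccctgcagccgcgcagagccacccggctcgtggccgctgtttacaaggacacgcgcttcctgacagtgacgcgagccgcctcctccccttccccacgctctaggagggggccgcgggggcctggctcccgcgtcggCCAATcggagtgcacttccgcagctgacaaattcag

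Jun held TGACATCA, a 1-base variant of the cAMP response element that is known to bind JUN-containing dimers, beginning 45 bases before the start. Of the 32851 promoters in the table, 2.93% had this motif on either strand in the corresponding 250 bases. Jun also had a CCAAT box (CCAAT), as did Junb, and this motif was present in 33.8% of all promoters. The GC box GGGCGG was found in Fos, Fosl2 and Jun, and in 32.7% of all promoters. Fos had TATAAA beginning 33 bases before its start, against 12.4% of all promoters. In Junb the letters TATAAA began at base 1 after the annotated start, outside the stretch shown. The AP-1 site TGACTCA (4.46% of promoters), the full cAMP response element TGACGTCA (1.55%) and the serum response element (1.47%) were not found in these 4 stretches. Bases farther upstream were not searched, so their absence from the whole promoters is not shown. All 7 motifs were searched on both strands, and no marked motifs overlapped. GC content ran from 58.4% in Fos to 66.4% in Junb, against a median of 52.4% over all promoters.

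Each window held 1 H3K4me3 region at or near its midpoint, which was taken as the lead promoter region of the gene. The gene starts themselves were not placed in mm9, so this choice rests on position. At Fos the lead region was chr12:86812201-86820800, 8.6 kb long with 3682 reads. At Fosl1 it was chr19:5446401-5452200, 5.8 kb with 1870 reads. At Fosl2 it was chr5:32434801-32448400, 13.6 kb with 5054 reads, beginning 1.6 kb from the midpoint at its nearer end.

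At Jun the lead region was chr4:94715001-94721000, 6.0 kb with 1946 reads and 4.0 kb from the midpoint. At Junb it was chr8:87497801-87517200, 19.4 kb with 6016 reads. Junb and Fosl2 thus had the longest of the 5. Of the 24492 H3K4me3 regions 22 were at least as long as that of Junb, itself included, and 91 at least as long as that of Fosl2, against 568 for Fos, 1944 for Jun and 2153 for Fosl1. By reads the 5 lay between percentile 90.4 for Fosl1 and 99.9 for Junb of their list. In 4 of the 5 windows the lead region also had the most reads; at Fosl1 the region chr19:5486001-5494000 had more, 3829. The Fosl1 window is dense in genes, and in the order of the GRCm38 table Fosl1 is followed by Ccdc85b and Fibp. In that order Junb lies between Prdx2 and Hook2. Whether the long lead region of Junb also holds the start of a neighbour was not examined.

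**Figure D1:**
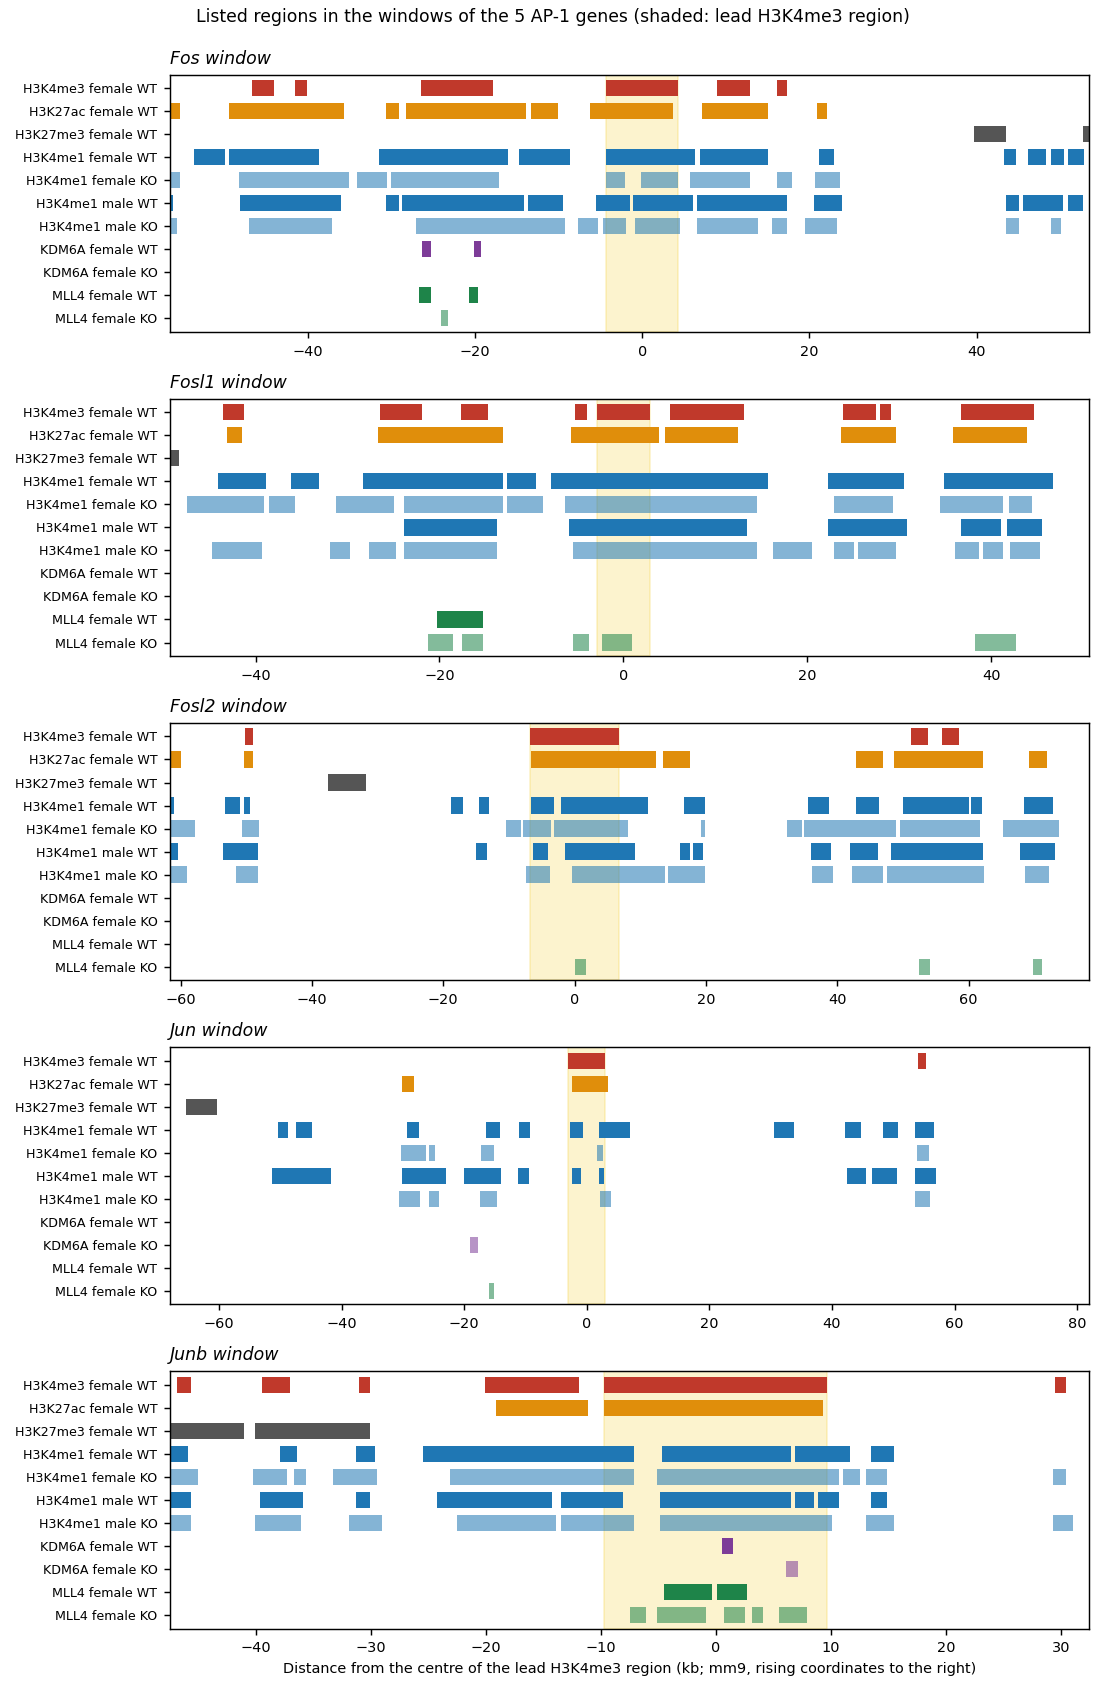
Listed regions in each window, by list, as bars placed by their distance in kb from the centre of the lead H3K4me3 region (shaded); KO lists are drawn paler. The Jun window shows 2 H3K27ac bars and gaps in both KO rows of H3K4me1. Junb shows a broad block of H3K4me3 (19.4 kb) and of H3K27ac, with separate MLL4 bars on it, 2 in WT and 5 in KO.

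All 5 lead regions were overlapped by H3K27ac, as were 82.9% of all H3K4me3 regions, and H3K27ac covered from 90.0% of the lead region of Jun to all of that of Fosl1. None of the 5 was overlapped by H3K27me3, which met 16.0% of all H3K4me3 regions. The acetylated regions on the leads differed in size. That of Junb spanned 19.0 kb with 3385 reads and lay at percentile 99.8 of the H3K27ac list. Fosl2 had 19.0 kb with 2065 reads and percentile 99.4. Fosl1 had 9.6 kb with 1019 reads, Fos 10 kb with 939 reads, and Jun 5.8 kb with 352 reads at percentile 81.6. In reads per kb the Junb region was 2.88 times the mean of its list and that of Jun 0.982 times. Among the 5 genes in this line Jun thus had the shortest and least dense H3K27ac region on its lead region, and Junb the densest.

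Where H3K4me1 lay on both flanks of a promoter it was usually interrupted inside the H3K4me3 region, the common form of an active start site. At Junb all 4 H3K4me1 lists were interrupted at nearly one position. The gap ran from 87500401 to 87502800 in female WT, from 87500401 to 87502400 in female KO, from 87499401 to 87502600 in male WT and from 87500401 to 87502600 in male KO. At Fosl2 a gap was present in all 4 lists and measured 1.2 kb in female WT, 0.4 kb in female KO, 2.6 kb in male WT and 3.4 kb in male KO. At Fos the gap was 2.0 kb in female KO, 0.4 kb in male WT and 1.0 kb in male KO, and female WT had none. At Fosl1 a single region of 19.4 to 23.6 kb covered the whole lead region in each of the 4 lists.

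At Jun the flanks differed by genotype. The WT lists held H3K4me1 on both sides of a gap of 2.6 kb in the female and 3.0 kb in the male line, whereas each KO list held the side of higher coordinates alone. The region of lower coordinates was chr4:94715201-94717400 with 71 reads in female WT and chr4:94715601-94717000 with 60 reads in male WT. Covered length of the lead region was 53.3% in female WT against 16.7% in female KO, and 36.7% in male WT against 13.3% in male KO. Over all H3K4me3 regions the median cover by H3K4me1 was 89.9%, 92.3%, 95.0% and 100% in these lists. Jun was lower than those medians in all 4. Junb was too, though nearer to them, with 85.6%, 89.7%, 79.4% and 88.7%. The side of higher coordinates had 159 reads over 5.0 kb in female WT and 27 over 1.0 kb in female KO. In the male lines it had 34 reads over 0.8 kb in WT and 65 over 1.8 kb in KO. Its length and reads thus went opposite ways in the pairs, while its reads per kb were lower in KO in both. They were 0.730 and 0.624 times the list mean in female WT and KO, and 0.764 and 0.657 times in male WT and KO. The side of lower coordinates was absent from KO in both pairs. All of these are small regions.

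**Figure D2:**
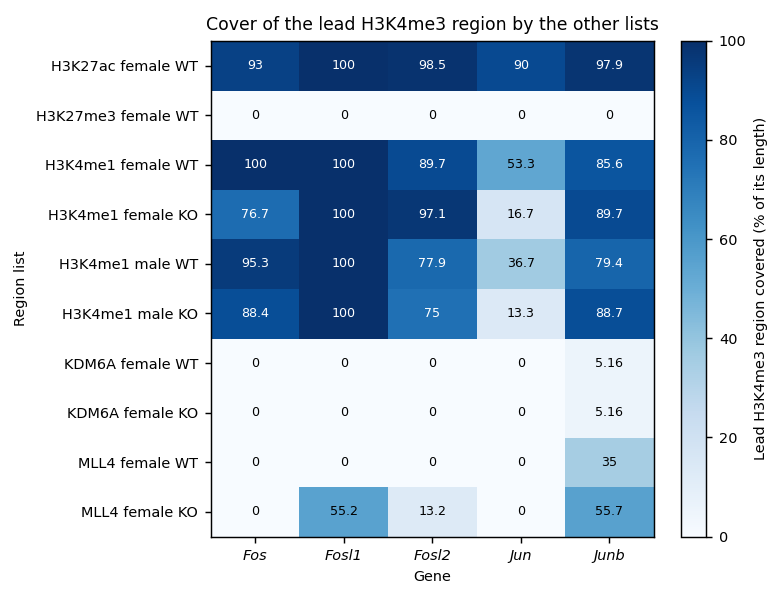
Percent of the length of each gene's lead H3K4me3 region covered by the regions of the other 10 lists, 1 library each. H3K27ac covered at least 90.0% of each, H3K27me3 none, and H3K4me1 cover was lowest at Jun, from 13.3% in male KO to 53.3% in female WT.

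Around Fos, the prototype of the family, the active chromatin of female WT formed several blocks on both sides of the promoter. H3K27ac covered 48.5% of the window in 8 regions, 5 of them with H3K4me3. The longest was chr12:86788201-86802600, 9.6 kb from the lead region on the side of lower coordinates, with 1333 reads over 14.4 kb. It contained an H3K4me3 region of 8.6 kb with 1163 reads, at 0.570 times the mean reads per kb of its list. Another, chr12:86767001-86780800, lay 31.4 kb away with 1396 reads. On the other side an H3K4me3 region at chr12:86825401-86829400, 4.6 kb from the lead region, had 1717 reads and 1.81 times the list mean per kb, as dense as the promoter itself. H3K27me3 was listed 35.4 kb and 48.4 kb away on that side, with 73 and 154 reads, clear of the acetylated blocks.

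H3K4me1 around Fos covered 63.8 kb in female WT and 49.6 kb in female KO, and 66.4 kb in male WT and 55.0 kb in male KO. KO length was thus 77.7% and 82.8% of WT, somewhat above the 67.1% and 75.9% of the whole lists. Of the 11 female WT regions 6 had no overlap in KO, close to the 51.1% of the whole female WT list. With both lists reduced to an equal number of regions it was 2 of 7, against 43.0%. In the male pair it was 2 of 12, against 42.0% of the male WT list, and with equal lists 1 of 11, against 36.0%. The largest female one was chr12:86801801-86807800, 4.4 kb from the lead region, with 308 reads and with H3K27ac in WT. It was listed in both male lines. The next was chr12:86762801-86766600 with 100 reads, in no other list. The male ones were chr12:86785801-86787400 with 89 reads and chr12:86867401-86869200 with 56 reads. A group of 4 small regions between 39.0 and 46.6 kb from the lead region, with 47 to 65 reads each, was listed in female WT and not in female KO. In the male lines 3 regions lay in that stretch in WT and 2 in KO. The outermost and innermost of the 4 overlapped the H3K27me3 regions.

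The main upstream block kept its H3K4me1 in all 4 lines. Female WT had chr12:86785001-86800400 with 890 reads, female KO chr12:86786401-86799400 with 703, male WT chr12:86787801-86802400 with 973 and male KO chr12:86789401-86807200 with 1145. In reads per kb these were 1.33, 1.25, 1.20 and 1.17 times the mean of their own list. The block of lower coordinates was denser in female KO, with 943 reads over 13.2 kb, than in female WT, with 407 reads over 10.8 kb, at 1.65 and 0.866 times the list mean. The male lines went the other way there, 0.946 times in KO and 1.37 times in WT. One of the 9 female KO regions, chr12:86832601-86834400 with 56 reads, was not listed in female WT, against 23.4% of the female KO list. In the male pair 0 of 11 KO regions lacked a WT counterpart, against 25.4% of the male KO list.

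Fosl1, which encodes FRA-1, had the window with the widest H3K4me1 cover in female WT. H3K4me3 covered 37.8% of its 100 kb in 9 regions, and all 6 H3K27ac regions overlapped H3K4me3. Across the 5 windows 8 of 25 H3K27ac regions had no H3K4me3, against 35.0% of the whole H3K27ac list, 4 of them at Fosl2, 3 at Fos and 1 at Jun. H3K4me1 at Fosl1 covered 70.2 kb in female WT and 69.0 kb in female KO. No region of either list lacked a counterpart here, against 51.1% of the female WT and 23.4% of the female KO list. In the male lines H3K4me1 covered 46.4 kb in WT and 59.4 kb in KO, so KO length was 98.3% of WT in the female pair and 128% in the male pair. All 5 male WT regions had a counterpart in KO, while 42.0% of the male WT list had none. Of the 11 male KO regions 4 had none in WT, against 25.4% of the male KO list. The leading ones of these were chr19:5404601-5410000 with 263 reads and chr19:5421601-5424600 with 145. Both positions were listed in both female lines.

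In 3 of the 4 lists the densest H3K4me1 of this window lay not on the lead region but 10.2 to 10.8 kb away. It was chr19:5421001-5436200 with 1405 reads in female WT, chr19:5425401-5436200 with 1102 in female KO, and chr19:5425401-5435600 in both male lines, with 1153 reads in WT and 1036 in KO. These were 2.12, 2.36, 2.03 and 1.85 times the mean reads per kb of their lists. In male KO the short region chr19:5485401-5488000 was denser, at 2.46 times. The block was overlapped by MLL4 in both genotypes, as given below.

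Fosl2 encodes FRA-2. Its window joined a broad promoter with a cluster of acetylated elements 36.0 to 62.4 kb away on the side of higher coordinates. The cluster held H3K27ac at chr5:32490201-32503800 with 972 reads, at chr5:32484401-32488600 with 227 reads and at chr5:32510801-32513600 with 80 reads. The first of these contained 2 weak H3K4me3 regions, with 235 and 98 reads. H3K4me1 in the cluster was listed in all 4 lines and was more extended in female KO, where chr5:32476601-32490600 spanned 14.0 kb with 650 reads. In that stretch female WT had 2 regions, of 3.2 kb with 84 reads and of 3.6 kb with 93 reads. The neighbouring region of highest density had 513 reads in female WT and 824 in female KO, and 1038 in male WT and 1322 in male KO, at 1.18, 1.56, 1.33 and 1.62 times the list means.

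Over the Fosl2 window H3K4me1 covered 49.8 kb in female WT and 61.8 kb in female KO, 51.0 kb in male WT and 55.8 kb in male KO. KO length was 124% of WT in the female pair and 109% in the male pair, while both whole lists were shorter in KO. Regions without a KO counterpart were 3 of 13 in female WT and 1 of 11 in male WT, against 51.1% and 42.0% of the whole lists. The former were led by chr5:32388401-32390600 with 66 reads and chr5:32422801-32424600 with 43 reads, and the latter was chr5:32426601-32428200 with 61 reads. All 4 had fewer reads than the median of their list. Female KO had 2 of 10 regions without a WT counterpart, with 85 and 64 reads, against 23.4% of its list. Male KO had 0 of 9, against 25.4% of its list. With equal lists these became 4 of 10 and 1 of 9, against 39.3% and 34.1%. H3K27me3 was listed once, at chr5:32404001-32409800 with 112 reads, where no H3K4me1 list had a region.

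Jun, the first-described partner of FOS, had the sparsest window and the largest difference between KO and WT. H3K27ac was listed in 2 regions, on the promoter and at chr4:94687801-94689800 with 48 reads, and covered 5.20% of the window. H3K4me1 covered 28.6 kb in female WT and 10.2 kb in female KO, and 37.4 kb in male WT and 12.0 kb in male KO. KO length was thus 35.7% of WT in the female and 32.1% in the male pair, the lowest of the 5 windows in both, against 67.1% and 75.9% of the whole lists. With both lists reduced to an equal number of regions the Jun value was 66.2% in the female pair, against 79.1% for the whole lists, and 34.1% in the male pair, against 83.1%. With only the regions above the median reads of each list the male value was 10.6%, against 75.3%.

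Of the 11 H3K4me1 regions of female WT at Jun 7 had no counterpart in KO, and of the 9 of male WT 5 had none, or 63.6% and 55.6% against 51.1% and 42.0% of the whole lists. With equal lists it was 3 of 5 and 4 of 7, against 43.0% and 36.0%. In the other direction, equal lists gave 3 of 5 female KO and 1 of 5 male KO regions without a WT counterpart. The whole KO lists gave 39.3% and 34.1%. By count the female pair at Jun was thus alike in both directions with equal lists. At the main setting, 6 of 8 female and 4 of 6 male WT regions outside H3K4me3 had no KO counterpart. The whole lists gave 74.8% and 61.0% for regions outside H3K4me3, so by region count the distal elements of Jun were near the background of their lists. The leading female ones were chr4:94670601-94673200 with 115 reads and chr4:94748601-94751800 with 113 reads. The leading male ones were chr4:94666601-94676200, 9.6 kb long with 456 reads, and chr4:94764601-94768600 with 153 reads. Of all Jun regions in WT alone, 2 of the 7 female and 3 of the 5 male ones had more reads than the median of their list. One of the 7 female and 1 of the 5 male regions overlapped H3K27ac of female WT, in each case the promoter flank described above. Over the whole lists 4699 of 28658 female and 2309 of 26971 male WT regions without a KO counterpart did so. With so few regions at Jun, no difference from the lists can be read from these counts.

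Most positions absent from KO were common to both pairs. After merging the 4 H3K4me1 lists, the Jun window held 10 merged regions, of which 9 were present in both WT lines and 5 of these were absent from both KO lists. Over the genome 26.2% of merged regions present in both WT lists were absent from both KO lists. The 5 were chr4:94666601-94676200, chr4:94706801-94708800, the promoter flank at chr4:94715201-94717400, chr4:94760201-94763600 and chr4:94764601-94768800. Their nearest edges lay 38.8, 6.2, 0, 39.2 and 43.6 kb from the lead region. In the other 4 windows 2 merged regions had that pattern, 1 of 8 at Fos and 1 of 7 at Fosl2. In length, 12.8 kb of the 19.8 kb listed in both WT lines at Jun were in neither KO list, or 64.6%. The genome gave 28.4%, and the other windows 13.8% for Fos, 6.54% for Fosl2, 3.91% for Fosl1 and 3.37% for Junb. Of the 5 merged regions only the promoter flank overlapped H3K4me3. The genome values, like the whole-list lengths above, were not split by overlap with H3K4me3, outside which regions were less often shared. How far this accounts for the difference at Jun was not tested.

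The merged Jun regions found in all 4 lists were the promoter flank of higher coordinates and positions 11, 20.0 and 50.6 kb away. Around chr4:94698001-94704000 male WT had 6.0 kb with 295 reads and male KO 2.8 kb with 95 reads, while female WT had 2.2 kb with 68 and female KO 2.0 kb with 52. Around chr4:94687801-94695000 male WT had 7.2 kb with 387 reads and male KO a pair of regions with 148 and 65 reads. The female pair differed in the opposite direction there, with 48 reads in WT and 139 in KO, and a further KO region, chr4:94692201-94693200, with 28 reads and no female WT counterpart. The Jun promoter region carried no KDM6A, MLL4 or H3K27me3 region in any list, and H3K27me3 was listed 57.4 kb away, at chr4:94652601-94657600 with 79 reads.

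Junb, a JUN protein that forms weaker activating dimers than JUN itself, had the longest lead region and the opposite picture. All 7 H3K4me1 regions of female WT and all 9 of male WT had a counterpart in KO. Over the whole WT lists 51.1% and 42.0% of regions had none. With equal lists, which shorten the WT lists alone, every WT region left still had a KO counterpart. The equal lists as a whole gave 43.0% and 36.0% of WT regions without one. Of the KO regions 6 of 9 female and 4 of 8 male then had no WT counterpart, against 39.3% and 34.1% of the lists. H3K4me1 covered 41.0 kb in female WT and 46.4 kb in female KO, and 38.4 kb in male WT and 42.8 kb in male KO, so KO length was 113% and 111% of WT. The block on the Junb lead region beyond the gap was denser in both KO lines. Its main region spanned 11.2 kb with 848 reads in female WT, 15.8 kb with 1463 in female KO, 11.4 kb with 945 in male WT and 15 kb with 1644 in male KO. In reads per kb these were 1.74, 2.14, 1.49 and 1.99 times the mean of their lists. Those means were close between genotypes, 43.5 and 43.2 reads per kb in female WT and KO and 55.6 and 55.0 in male WT and KO. After gaps of 0.4 kb the block went on with 1 further region in female WT, 1 in female KO and 2 in male WT. With these it ended at 87519200 in female WT, 87520000 in female KO and 87518200 in male WT, and in male KO at 87517600.

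At the far end of the Junb window chr8:87536801-87538000 in female KO, with 35 reads, and chr8:87536801-87538600 in male KO, with 58 reads, had no WT counterpart. This was the only merged region of the 5 windows listed in both KO lines and in neither WT line, 1 of 27 present in both KO lists, against 7.02% over the genome. A short H3K4me3 region of female WT with 86 reads lay at that position. On the opposite side, 20.4 to 31.4 kb from the lead region, H3K27me3 formed a pair of regions of 10 kb each with 344 and 375 reads. They contained 3 short H3K4me3 regions with 36 to 165 reads and no H3K27ac, and H3K4me1 was listed there in all 4 lines. No other H3K4me3 region of the 5 windows met H3K27me3, which makes 3 of 27 against the 16.0% given above.

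**Figure D3:**
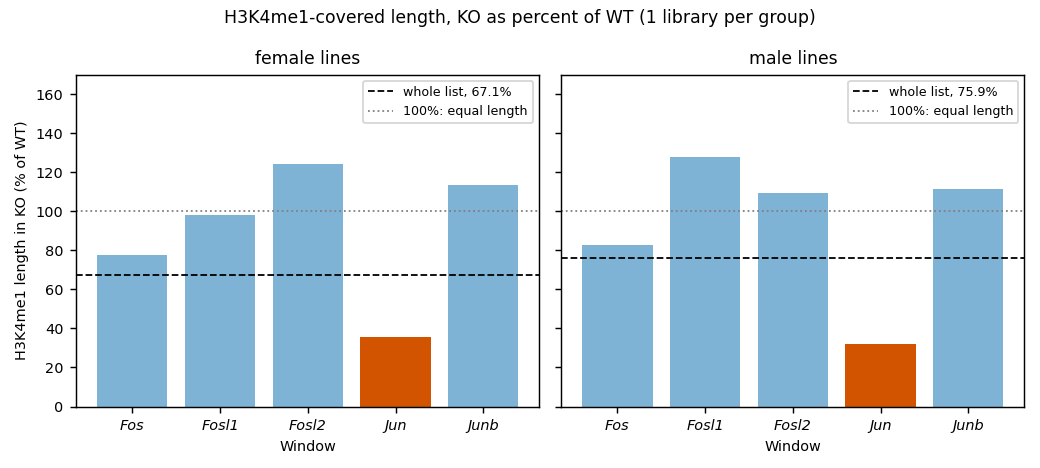
H3K4me1-covered length of each window in KO as percent of WT, 1 library per group, for the female and the male lines; dashed lines give the same for the whole lists. Jun lies below the dashed line in both pairs (35.7% and 32.1%), and Fos, Fosl1, Fosl2 and Junb lie above it.

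Over the 5 windows together 16 of 49 female WT regions and 8 of 46 male WT regions had no KO counterpart, against 51.1% and 42.0% of the whole lists. Of these, 15 and 7 lay outside H3K4me3, as did 25821 of 28658 female and 26011 of 26971 male ones over the whole lists. In the other direction 5 of 42 female KO and 5 of 44 male KO regions had no WT counterpart, against 23.4% and 25.4%. With equal lists, which shorten the WT lists alone, 5 of 29 female WT and 15 of 42 female KO regions had no counterpart, against 43.0% and 39.3% of the lists. In the male pair it was 5 of 37 and 10 of 44, against 36.0% and 34.1%. KO length was 93.5% of WT in the female pair and 93.9% in the male pair. With equal lists the female value was 108.9%, and in windows widened by 50 kb it was 100.3%. The windows hold 27 H3K4me3 regions, of which 21 carried H3K27ac, and in the whole lists too regions outside H3K4me3 were the less often shared, as the percentages for Jun show. Whether the high sharing around Fosl1, Fosl2 and Junb exceeds that of other acetylated promoters was not tested. Of all length listed in any of the 4 H3K4me1 lists, 63.4% was common to all 4 at Junb, 48.7% at Fosl1, 42.1% at Fosl2, 39.2% at Fos and 11.9% at Jun, against 20.9% over the genome.

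**Figure D4:**
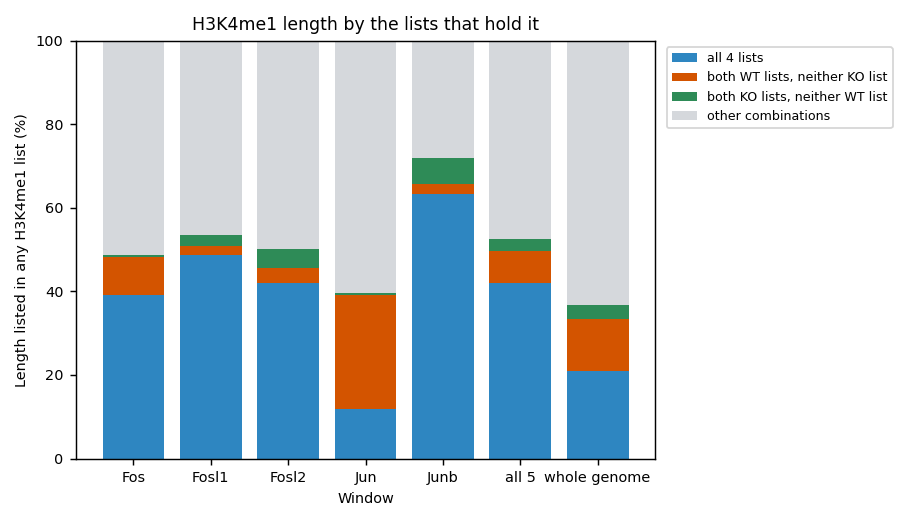
Length listed in any of the 4 H3K4me1 lists, in percent, split by the lists that hold it, for each window, the 5 windows together and the whole genome. Length common to all 4 lists is largest at Junb (63.4%) and smallest at Jun (11.9%), where length in both WT lists and neither KO list makes 27.2%.

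MLL4, the enzyme whose complex includes KDM6A, had more regions at these genes in the KO line, whose whole list is also longer. The windows held 15 MLL4 regions in female KO and 5 in female WT. The lists hold 13152 and 2130 in all, a relatively larger excess in KO than in the windows. With the KO list reduced to the length of the WT list 8 were left. Among the 15, 11 did not overlap MLL4 of WT, against 95.2% of the KO list, and of the 5 WT regions 2 had no KO counterpart, against 71.7%. H3K27ac of female WT overlapped 14 of the 15 and all 5, against 51.3% and 56.0% of the lists. H3K4me3 overlapped 12 and 5, against 39.2% and 44.7%. All 4 H3K4me1 lists had a region at 14 of the 15 and at all 5. The same share was not computed over the whole MLL4 lists, so this count cannot be called particular to these genes.

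Junb had the widest MLL4 cover in WT, 6.8 kb, and Fosl1 the widest in KO, 14.4 kb against 10.8 kb at Junb. At Junb in female WT chr8:87503001-87507200 had 152 reads and chr8:87507601-87510200 had 102, at percentiles 98.8 and 96.1 of that list. Female KO had 5 regions on the lead region, led by chr8:87502401-87506600 with 155 reads and chr8:87508201-87510000 with 81, and these 2 overlapped the WT regions. The next was chr8:87513001-87515400 with 65 reads. One KO region, chr8:87500001-87501400 with 45 reads, reached into the H3K4me1 gap. MLL4 covered 35.1% of the Junb lead region in WT and 55.7% in KO.

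At Fosl1 the WT line had 1 MLL4 region, chr19:5429001-5434000 with 166 reads, at percentile 99.2 of its list and on the dense H3K4me1 block described above. The KO line split this position into chr19:5428001-5430800 with 118 reads and chr19:5431801-5434000 with 90. Beyond it KO had a region on the lead promoter, chr19:5447001-5450200 with 103 reads, one beside it with 67 reads, and chr19:5487601-5492000 with 154 reads. Chromosome 19 held 5.69 MLL4 regions per Mb in WT and 4.22 in KO, against 0.807 and 4.98 over the genome, so the WT list was dense on that chromosome. Its part in the WT region at Fosl1 was not tested.

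Fosl2 had 3 MLL4 regions in KO and none in WT. One lay on the promoter, at chr5:32441601-32443400 with 46 reads. The others lay in the acetylated cluster, at chr5:32494001-32495800 with 48 reads and chr5:32511401-32512800 with 46. At Jun MLL4 was listed once, in KO, at chr4:94702001-94702800 with 29 reads, 12.2 kb from the promoter on H3K4me1 listed in all 4 lines. At Fos the binding lay on the upstream block and not on the promoter. WT had chr12:86789801-86791200 with 39 reads and chr12:86795801-86796800 with 37, and KO had chr12:86792401-86793200 with 26 reads between them. Fos was thus the only window with more MLL4 regions in WT than in KO, with 2 against 1 of few reads each.

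Among the 5 lead promoter regions, MLL4 of KO overlapped those of Fosl1, Fosl2 and Junb and MLL4 of WT that of Junb alone. Of all H3K4me3 regions 18.7% met MLL4 of KO and 3.80% MLL4 of WT.

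KDM6A was sparse. Female WT had 3 KDM6A regions in the windows and female KO, where the antibody should find no target, had 2. The whole KDM6A lists hold 2847 regions in WT and 5961 in KO, so the KO list was the longer. All 3 WT regions and both KO regions lacked a counterpart in the other genotype, as did 91.0% and 95.6% of the lists. At Fos the WT line had chr12:86790201-86791200 with 36 reads and chr12:86796401-86797200 with 33. Each overlapped one of the MLL4 regions of WT on the upstream block, where no KDM6A region of KO was listed. At Junb the WT line had chr8:87508001-87509000 with 41 reads, inside MLL4 of WT and overlapping MLL4 of KO, and KO had chr8:87513601-87514600 with 35 reads, inside MLL4 of KO.

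At Jun the KO list had chr4:94699001-94700200 with 34 reads, within an H3K4me1 region of male WT. Fosl1 and Fosl2 had no KDM6A region in either genotype, although chromosome 19 held 8.15 KDM6A regions per Mb in WT, against 1.08 over the genome. The Junb lead region was therefore the only one of the 5 with KDM6A, in WT and in KO, where 3.27% of all H3K4me3 regions met KDM6A of WT and 6.11% KDM6A of KO. Reads of the 5 KDM6A regions ran from 33 to 41, below the medians of 44 in WT and 42 in KO for their lists, and none remained when only regions above the median were counted. The regions of the WT line, 33 to 41 reads, and of the KO line, 34 and 35, thus lay in a common low range.

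Other genes of the pathway (Fosb, Jund, Batf, Batf3, Atf3, Jdp2, Srf and Elk1) were not analysed here, since their mm9 positions were not at hand. In the order of the GRCm38 table the genes Jdp2 and Batf, also of the AP-1 group, follow Fos as its nearest coding neighbours on that side.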

How the data were processed

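ChIP-seq region lists of 11 libraries were used; the female WT input library (IgG in its antibody field) has no list used here. The aligner Bowtie (1.1.2), the region caller SICER (1) and the build mm9 are named, without roles, in the submitters' processing notes. The deposited lists give a position and a whole number per region, taken as a read count because it grows with length and region borders lie on steps of 200 bp. The control library, calling threshold and total mapped depth are not given in the sources used here. Starts were read as counting from 0 and are printed counting from 1.

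Members and gene lists were chosen with earlier results of these data known. Regions sharing at least 1 bp were counted as overlapping. Covered length was clipped to the window, and reads per kb were set against the mean of the region's own list, not compared as levels between lists. Per window, the 2 regions of 1 genotype alone with the most reads in each pair and direction, and up to 3 per list for KDM6A, MLL4 and H3K27me3, were to be named; other regions were named where a result turns on them, after their values were seen. With 1 library per group no test was run. Alternatives were a 50% overlap, regions above the median reads, lists of equal length, merging within 5 kb and windows widened by 50 kb. No interval is given for these few regions. Promoters came from the RefSeq table of GRCm38.p6, and no coordinates of that build were used. Python 3.11.15, numpy 2.4.6, pandas 2.3.3, scipy 1.17.1 and matplotlib 3.10.9 were used. Overlaps were tested on simulated data and checked against bedtools 2.31.1.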

Additional observations from a re-analysis of the deposited data

Results flagged for a closer look

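Fosl1 was the only one of the 5 windows in which KO and WT went in opposite directions in the female and the male pair: H3K4me1 length in KO was 98.3% of WT in the female lines and 128% in the male lines. The difference between the pairs was not tested, since each group held 1 library, and the female value was 103.8% in windows widened by 50 kb.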

How the results depend on the processing

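No paired analysis was possible because each group holds 1 library and the groups share the replicate number 1 alone. Counts of H3K4me1 regions found in 1 genotype alone depended on the setting. For female WT (16) they were 4 with regions above the median reads, 5 with equal lists and 4 with neighbours merged, and for male WT (8) they were 3, 5 and 2. For female KO (5) they were 16 with a 50% overlap, 0 above the median, 15 with equal lists and 1 with merging, and for male KO (5) 8, 3, 10 and 2. More regions were in WT alone than in KO alone in both pairs at the main setting and with a 50% overlap; with equal lists, which shorten the WT lists alone, more were in KO alone in both, and in the male pair the counts were equal above the median and with merging. KO length as percent of WT in the female pair went from 93.5% to 108.9% with equal lists and 100.3% in widened windows; in the male pair it ran from 92.6% to 99.4%. For Fosl1 the female value was 103.8% in widened windows. Jun ranged from 30.4% to 66.2% in the female and from 10.6% to 46.1% in the male pair, Fosl2 from 124% to 175% and from 106% to 127%, Junb from 104% to 135% and from 111% to 126%, and Fos from 71.2% to 87.6% and from 78.2% to 85.1%. KDM6A regions of KO (2) were 0 above the median, 4 in widened windows and 0 with equal lists, and those of WT (3) were 0 above the median. MLL4 regions of KO (15) were 8 with equal lists and those of WT (5) were 3 above the median. The cause of these changes was not tested, beyond the smaller number of regions that the stricter settings keep.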
